A study of Homo sapiens with 6 samples.

Results

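The long arm of human chromosome 19 ends in a dense cluster of zinc finger genes, and 46 of them at band 19q13.43 are described here in HCT116 cells, an established human colorectal cancer line. The genes were chosen by symbol, as a list of cluster members drawn up with the read counts and changes of this same comparison already known, out of 56638 gene symbols in each table. The counts and changes below are therefore a description of these members and not independent evidence about the cluster. All 46 symbols were found in the files. GENCODE release 29 places them on chromosome 19 between positions 56375846 and 58481230 (GRCh38), a span of 2.11 Mb from ZNF582 to ZNF446.

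The 6 libraries comprised 3 from HCT116 cells labelled ZFP90 KO and 3 from HCT116 cells labelled control, all at passage 16 to 19. Knockout alleles were made with guide RNAs against exon 3 of ZFP90, per the labels, and the labels do not say what the control cells received. Whether the replicates are separate cultures or clones is not stated either, and the p-values refer to the variation among these 6 libraries, which could be purely technical. Reads assigned to genes numbered 13424356 to 17012910 per library. Control replicate 2 stood apart from the other controls over all genes: counts differed by a chi-square per degree of freedom of 20.06 and 20.05 from those of control replicates 1 and 3, against 2.21 between these, and 2.60 to 4.01 between libraries labelled knockout. Without it 10 members were called higher and 0 lower, beside 9 and 0 with all libraries. Over all genes tested, 2248 were then called higher and 2340 lower, beside 1593 and 1861 with all libraries.

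Most genes of this cluster encode proteins with an array of C2H2 zinc fingers that bind DNA, and many carry an amino-terminal KRAB domain. The KRAB domain binds the corepressor TRIM28, also called KAP1, which brings in the histone methyltransferase SETDB1 and heterochromatin proteins. Many such proteins bind transposable elements and silence them. The zinc finger genes of chromosome 19 arose by repeated local duplication, so neighbours resemble each other in sequence. ZFP90, the targeted gene, encodes a KRAB zinc finger protein itself but lies on chromosome 16.

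RNA of the targeted gene checks the labels only in part, because edits to exon 3 can leave the amount of transcript as it was or change it either way. ZFP90 had 1438, 1135 and 1372 reads in the libraries labelled ZFP90 KO, against 770, 720 and 577 in the control libraries. It was higher, with a log2 fold change of 0.90 (SE 0.066, edgeR quasi-likelihood test, adjusted p = 5.1e-05). The RNA level thus neither bears out the knockout label nor contradicts it. Directions below are those of the libraries as labelled. The epithelial markers EPCAM, CDH1, KRT8, KRT18, KRT19, CLDN3, CLDN4, CLDN7, CDX2 and CDH17 were among 10 of 13 colorectal markers that passed the count filter, while CDX1 had 0 reads and VIL1 and LGALS4 had 8 and 12 reads over all libraries. KRT18 was called lower (log2 fold change -0.23, edgeR adjusted p = 0.0394) and the other 9 were not called. Summed over the list, these markers stood at 3173 to 3278 CPM (reads scaled to library size) in the libraries labelled knockout and 3185 to 3293 CPM in the control libraries. None of 6 leukocyte markers passed the filter, and PTPRC and CD3E had 1 and 0 reads in all. Of 8 fibroblast and endothelial markers 5 passed and none of these was called, with PECAM1 at 0 reads and CDH5 at 2, and their sum was 75.4 to 97.0 CPM in the libraries labelled knockout and 75.4 to 95.6 CPM in the control libraries.

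Promoter sequences are shown first for 6 members that carry the main contrasts of the cluster. ZNF550, ZNF419 and ZNF134 had the largest changes among the members called, ZNF587 was among the most abundant members and was not called, and ZNF582 and ZNF667 had no read in any library. Each window runs from 250 bases before to 50 bases after the annotated start (RefSeq, GRCh38.p14), 5′ to 3′ on the gene's own strand, and capitals mark CpG dinucleotides, the sites of DNA methylation in mammals.
ZNF550, chr19:57559814-57560113, minus strand, 17 CpGs: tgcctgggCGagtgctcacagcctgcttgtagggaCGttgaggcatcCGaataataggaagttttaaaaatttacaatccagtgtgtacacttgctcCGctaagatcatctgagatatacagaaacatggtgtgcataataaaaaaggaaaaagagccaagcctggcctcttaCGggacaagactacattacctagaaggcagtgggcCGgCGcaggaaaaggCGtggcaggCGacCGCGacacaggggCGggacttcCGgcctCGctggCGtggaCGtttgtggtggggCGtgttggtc
ZNF419, chr19:57487500-57487799, plus strand, 21 CpGs: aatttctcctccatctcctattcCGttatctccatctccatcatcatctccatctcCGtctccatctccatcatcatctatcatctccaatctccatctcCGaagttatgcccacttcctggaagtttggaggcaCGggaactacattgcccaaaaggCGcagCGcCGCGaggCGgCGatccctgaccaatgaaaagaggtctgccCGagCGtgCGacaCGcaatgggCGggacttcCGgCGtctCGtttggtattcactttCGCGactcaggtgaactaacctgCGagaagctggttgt
ZNF134, chr19:57613992-57614291, plus strand, 21 CpGs: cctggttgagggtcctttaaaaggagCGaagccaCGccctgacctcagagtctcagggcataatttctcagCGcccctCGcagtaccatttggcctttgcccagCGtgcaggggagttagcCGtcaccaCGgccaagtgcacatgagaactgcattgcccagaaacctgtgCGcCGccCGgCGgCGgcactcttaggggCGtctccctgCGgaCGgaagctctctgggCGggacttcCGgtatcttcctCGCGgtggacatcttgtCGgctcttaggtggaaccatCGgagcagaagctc
ZNF587, chr19:57849609-57849908, plus strand, 12 CpGs: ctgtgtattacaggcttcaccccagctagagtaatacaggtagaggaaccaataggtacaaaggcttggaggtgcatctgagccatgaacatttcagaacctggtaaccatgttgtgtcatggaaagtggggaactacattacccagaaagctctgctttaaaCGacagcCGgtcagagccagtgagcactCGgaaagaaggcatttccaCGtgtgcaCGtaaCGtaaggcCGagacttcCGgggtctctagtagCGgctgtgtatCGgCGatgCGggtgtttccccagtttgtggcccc
ZNF582, chr19:56393485-56393784, minus strand, 30 CpGs: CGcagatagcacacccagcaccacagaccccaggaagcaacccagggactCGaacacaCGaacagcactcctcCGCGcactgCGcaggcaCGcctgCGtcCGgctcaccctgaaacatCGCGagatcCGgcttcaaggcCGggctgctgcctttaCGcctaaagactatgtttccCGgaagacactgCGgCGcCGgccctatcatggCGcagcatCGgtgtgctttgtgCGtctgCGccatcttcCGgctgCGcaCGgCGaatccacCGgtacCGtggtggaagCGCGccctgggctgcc
ZNF667, chr19:56477296-56477595, minus strand, 42 CpGs: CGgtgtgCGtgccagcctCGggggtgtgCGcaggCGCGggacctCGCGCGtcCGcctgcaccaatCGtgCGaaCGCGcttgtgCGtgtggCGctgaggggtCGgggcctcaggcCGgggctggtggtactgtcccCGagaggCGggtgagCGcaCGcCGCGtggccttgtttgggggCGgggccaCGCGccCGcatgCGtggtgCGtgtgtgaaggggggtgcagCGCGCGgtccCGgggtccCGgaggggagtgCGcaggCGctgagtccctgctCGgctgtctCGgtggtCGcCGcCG

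The cluster was split between detected and silent genes, and the silent ones stood in blocks. Of the 46 members, 31 reached 10 reads in at least 3 libraries, and the same 31 passed the filter for testing. In 30 of these 31 all 6 libraries held 10 reads or more. The exception was ZNF772, which reached 10 reads in all 3 libraries labelled knockout but in only 1 control library, and so passed through the group where it was higher. The other 15 members comprised 9 without a single read and 6 with a few reads. Over 90952789 gene reads in all libraries, a count of 0 allows a level of up to 0.033 CPM, and this limit covers counting error only.

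The first 7 members along the cluster formed an uninterrupted silent block of 296 kb. ZNF582, ZNF583, ZNF667, ZNF470, ZNF71 and ZNF835 had 0 reads in all libraries, and ZNF471 had 2 reads in knockout replicate 3 and none elsewhere. A second block of 164 kb held ZNF418, ZNF256, ZNF606 and ZNF135, in which the only read was 1 for ZNF418 in control replicate 1. Non-member zinc finger genes in or beside these blocks were also low: ZFP28, a KRAB zinc finger gene between ZNF471 and ZNF470, had 1 read over all 6 libraries, and ZSCAN18, which adjoins ZNF135, also had 1. Both blocks were silent in both groups of libraries.

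Another 4 members were nearly silent and lay in pairs. ZNF154 had 5, 7 and 17 reads in the libraries labelled knockout, against 7, 4 and 5 in the control libraries. Its neighbour ZNF671 had 6, 5 and 8 reads in the libraries labelled knockout, against 3, 7 and 7 in the control libraries, and the 2 groups overlapped for both genes. ZNF773 had 4 reads in each library labelled knockout, against 3, 2 and 0 in the control libraries. Its neighbour ZNF549 had 1 read in each library labelled knockout and 0 in each control library, which is under the floor of 3 reads in both groups. ZNF772 was the member just inside the detection limit, with 16, 17 and 17 reads in the libraries labelled knockout and 11, 8 and 9 in the control libraries, while ZNF154 and ZNF671 were the highest of those outside it.

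Several members are known from work on carcinomas for promoter methylation, namely ZNF132, ZNF154, ZNF471, ZNF582, ZNF667 and ZNF671. In HCT116 cells only ZNF132 of these 6 passed the filter, at 5.20, 4.68 and 4.91 CPM in the libraries labelled knockout and 5.55, 5.40 and 5.15 CPM in the control libraries. The groups overlapped, with a log2 fold change of -0.12 (SE 0.12, edgeR adjusted p = 0.529). DNA methylation itself was not measured.

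**Figure D1:**
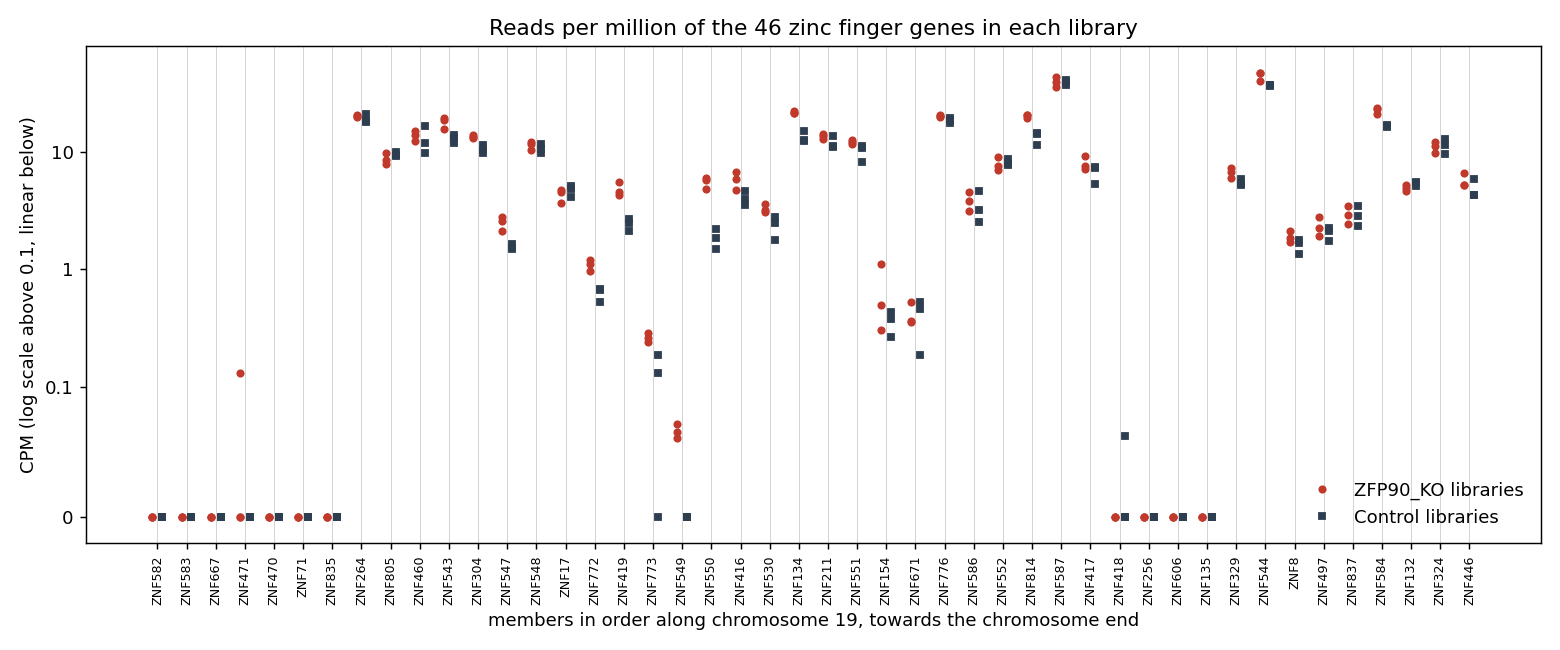
RNA level of each of the 46 zinc finger genes in order along chromosome 19, in CPM on a log axis above 0.1 and a linear axis below. Red circles are the 3 libraries labelled knockout and dark squares the 3 control libraries. The block of 7 members at the left and the block of 4 from ZNF418 to ZNF135 lie at or next to 0, and detected members range from 0.860 to 40.8 CPM on average.

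Detected members were modestly expressed. On a per-length scale the 31 tested members had a median level of 1.74 CPM per kilobase of merged exons, against 5.37 for all tested genes with a length. The highest levels on that scale were those of ZNF544 at 5.72, ZNF587 at 5.35, ZNF584 at 5.31, ZNF543 at 4.24 and ZNF211 at 3.87 CPM per kilobase, and the lowest was ZNF772 at 0.141. Exon lengths came from GENCODE release 29, which need not match the gene models behind the counts. Together the 46 members held 5981, 5024 and 5746 reads in the libraries labelled knockout, against 5094, 4572 and 4039 in the control libraries. As a sum this was 356 to 376 CPM in the libraries labelled knockout and 301 to 314 CPM in the control libraries, and the groups did not overlap. Sums over other ZNF genes of chromosome 19 did not overlap either. They were 897 to 927 against 799 to 820 CPM on the short arm, and 1682 to 1766 against 1499 to 1534 CPM on the long arm.

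Of the 31 tested members, 9 were called higher in the libraries labelled knockout and 0 were called lower (edgeR quasi-likelihood test, Benjamini-Hochberg adjusted p under 0.05 over 16369 genes). Over all genes tested, 9.73% were called higher and 11.4% lower. Scaling by library size alone called 6 members higher and 0 lower, and 986 genes higher and 2343 lower in all, against 1593 and 1861. At an unadjusted p under 0.05, 12 members were higher and 0 lower, and DESeq2 called 7 higher and 0 lower. Among all genes, DESeq2 called 1298 higher and 1524 lower. In 15 members every library labelled knockout lay above every control library, and in 0 below, whereas this held for 20.9% and 20.3% of all tested genes. The median log2 fold change of the tested members was 0.25, beside 0.0084 for all tested genes. These shares describe a list drawn up with this comparison known, so nothing is read from the difference.

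The number called moved with single libraries. It was 5 without knockout replicate 3, 5 without control replicate 3, and 6 to 10 without any 1 of the other 4 libraries. The number over all genes tested moved as well. It was 803 higher without knockout replicate 3 and 1176 without control replicate 3. The fits without 1 of the other 4 libraries gave 752 to 2248, against 1593 with all libraries. ZNF550, ZNF419, ZNF134, ZNF814 and ZNF584 were called under all 12 alternatives tried, whereas ZNF543, ZNF304, ZNF547 and ZNF544 were not.

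ZNF550 changed most. It had 5.74, 5.96 and 4.84 CPM in the libraries labelled knockout (95, 84 and 74 reads), against 2.22, 1.84 and 1.49 CPM in the control libraries (36, 28 and 20 reads). All libraries labelled knockout exceeded all control libraries, and the means were 5.51 ± 0.591 and 1.85 ± 0.364 CPM (SD, n = 3 each). This was a 2.94-fold difference, or a log2 fold change of 1.56 (SE 0.19, edgeR adjusted p = 0.000729). In bulk RNA, more expressing cells and more RNA per cell cannot be told apart. ZNF550 overlaps its near-silent neighbour ZNF549 in 9.30% of its merged exon bases, and strand use in counting is not given in the sources used here, so reads in that stretch cannot be told apart.

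ZNF419, which encodes a KRAB zinc finger protein known as the source of a minor histocompatibility antigen, had 5.56, 4.26 and 4.52 CPM in the libraries labelled knockout and 2.47, 2.11 and 2.69 CPM in the control libraries. The groups did not overlap, and the log2 fold change was 0.99 (SE 0.18, edgeR adjusted p = 0.0056). Of the distinct 50-base stretches in ZNF419 transcripts, 8.51% also occur in ZNF773, its near-silent neighbour, so part of ZNF419 cannot be assigned uniquely with short reads. Read length is not given in the sources used here.

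ZNF134 stood at 21.3, 21.6 and 22.1 CPM in the libraries labelled knockout and at 15.1, 12.4 and 12.5 CPM in the control libraries. The 3 knockout values lay within 1 CPM of each other, above all controls, with a log2 fold change of 0.69 (SE 0.097, edgeR adjusted p = 0.00166). ZNF134 had 168 to 352 reads per library, and its SE was below those of ZNF550 and ZNF419.

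ZNF814 had 20.5, 19.4 and 20.8 CPM in the libraries labelled knockout, against 14.2, 11.5 and 14.6 CPM in the control libraries. Its log2 fold change was 0.59 (SE 0.10, edgeR adjusted p = 0.00515). Its merged exons overlap those of other annotated genes, ZNF587 among them, over 24.5% of their length, and 13.8% of its 50-base stretches recur in genes elsewhere, most often ZNF417. ZNF587 and ZNF417 are paralogues known to bind and repress HERV-K elements in human cells. ZNF587 had 35.5, 43.3 and 39.7 CPM in the libraries labelled knockout and 39.7, 36.9 and 40.9 CPM in the control libraries, and the groups overlapped. Its log2 fold change was 0.01, with a 95% interval from -0.18 to 0.20 (edgeR adjusted p = 0.944). ZNF417 had 9.18, 7.09 and 7.66 CPM in the libraries labelled knockout and 7.28, 5.33 and 7.47 CPM in the control libraries. Its log2 fold change was 0.26, with a 95% interval from -0.11 to 0.63 (edgeR adjusted p = 0.294). Of the 50-base stretches in ZNF417, 30.5% also occur in ZNF587, and values for this group of copies are uncertain for that reason.

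ZNF584 stood at 23.5, 21.2 and 23.2 CPM in the libraries labelled knockout and at 16.2, 16.8 and 16.8 CPM in the control libraries. The control libraries were nearly equal and all lay below the libraries labelled knockout, with a log2 fold change of 0.45 (SE 0.078, edgeR adjusted p = 0.00468). ZNF584 shares no exon base with another gene of the annotation.

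**Figure D2:**
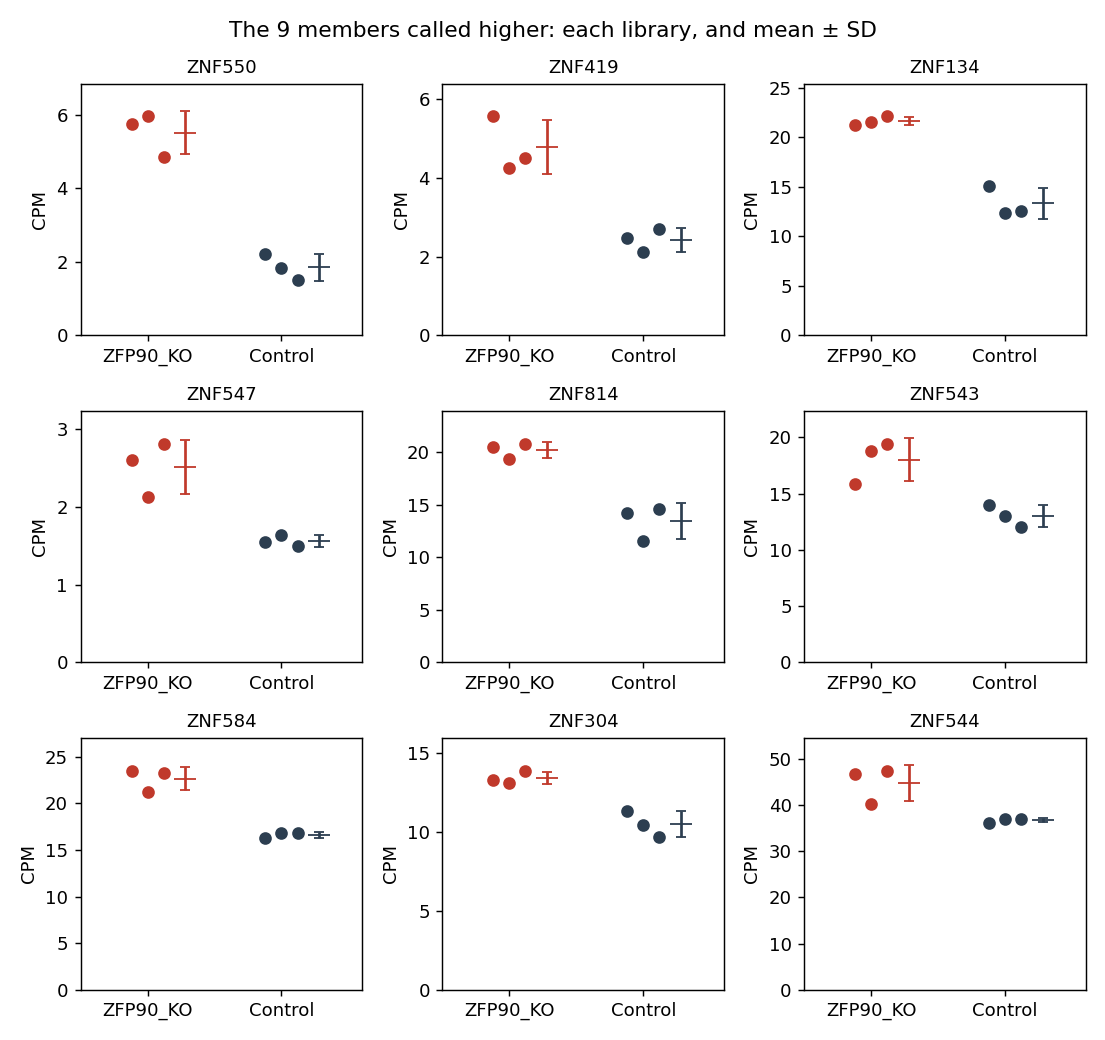
CPM of the 9 members called higher, 1 panel per gene, with the 3 libraries labelled knockout on the left (red), the 3 control libraries on the right (dark), and the mean ± SD beside each group. In every panel the lowest library labelled knockout lies above the highest control library, from 4.84 against 2.22 CPM for ZNF550 to 40.2 against 37.1 CPM for ZNF544.

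The remaining 4 called members had smaller or less stable differences. ZNF543 had 15.8, 18.8 and 19.4 CPM in the libraries labelled knockout and 13.9, 13.03 and 12.02 CPM in the control libraries (log2 fold change 0.47, SE 0.11, edgeR adjusted p = 0.0166). Its call was lost without knockout replicate 2 or 3 or control replicate 3, where the edgeR adjusted p was 0.0583, 0.0734 and 0.0537. ZNF304, a KRAB zinc finger gene, had 13.3, 13.1 and 13.9 CPM in the libraries labelled knockout and 11.4, 10.5 and 9.71 CPM in the control libraries. Its log2 fold change was 0.35 (SE 0.097, edgeR adjusted p = 0.0339), and of the 6 fits that left out 1 library only that without control replicate 2 kept the call (0.0313). The others gave adjusted p-values from 0.05 to 0.111, as did library size alone (0.0958), and DESeq2 gave 0.0718.

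ZNF547 had 2.60, 2.13 and 2.81 CPM in the libraries labelled knockout, against 1.54, 1.65 and 1.49 CPM in the control libraries, from 20 to 43 reads per library. Its log2 fold change was 0.69 (SE 0.20, edgeR adjusted p = 0.0378). The call held without control replicate 2 or knockout replicate 2 and was lost without any other library (edgeR adjusted p from 0.0905 to 0.121) with library size alone (0.0649) and with DESeq2 (0.124). ZNF544, the most abundant member, had 46.7, 40.2 and 47.4 CPM in the libraries labelled knockout and 36.2, 36.9 and 37.1 CPM in the control libraries. Its log2 fold change was 0.29 (SE 0.075, edgeR adjusted p = 0.0277), and the call was likewise lost without knockout replicate 1 or 3 or control replicate 1 or 3 (from 0.063 to 0.111) and with library size alone (0.0921).

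Of the 22 tested members that were not called, 17 had positive and 5 negative log2 fold changes, between -0.12 and 0.79, with a median of 0.14. In 6 of these 22 all libraries labelled knockout lay above all control libraries, which held for 20.9% of all tested genes, called or not. ZNF772 had 0.967, 1.21 and 1.11 CPM in the libraries labelled knockout and 0.679, 0.526 and 0.672 CPM in the control libraries, with a log2 fold change of 0.79 (SE 0.26, edgeR adjusted p = 0.0677). ZNF416 had 5.86, 4.75 and 6.81 CPM in the libraries labelled knockout and 3.95, 3.55 and 4.63 CPM in the control libraries, with a log2 fold change of 0.53 (SE 0.18, edgeR adjusted p = 0.0625). Without knockout replicate 2 ZNF416 was called (0.0444). ZNF530 had 3.56, 3.19 and 3.08 CPM in the libraries labelled knockout and 2.47, 2.76 and 1.79 CPM in the control libraries, with a log2 fold change of 0.48 (SE 0.19, edgeR adjusted p = 0.117). The groups did not overlap in any of these 3 genes, although the changes missed the threshold.

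ZNF551, ZNF329 and ZNF776 completed the uncalled members without overlap between groups. ZNF551 had 11.8, 12.6 and 12.2 CPM in the libraries labelled knockout and 10.7, 11.3 and 8.14 CPM in the control libraries (log2 fold change 0.27). It was called without control replicate 2 (edgeR adjusted p = 0.0466), as against 0.177 with all libraries. ZNF329 had 6.71, 5.96 and 7.26 CPM in the libraries labelled knockout and 5.43, 5.20 and 5.90 CPM in the control libraries (log2 fold change 0.27). ZNF776, at 20.4 ± 0.373 CPM in the libraries labelled knockout and 18.5 ± 0.874 CPM in the control libraries (SD, n = 3 each), differed by a log2 fold change of 0.14, with a 95% interval from -0.03 to 0.31.

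The other uncalled members overlapped between groups. ZNF446, a SCAN and KRAB zinc finger gene at the distal edge, had 5.26, 6.67 and 5.24 CPM in the libraries labelled knockout and 4.32, 4.28 and 5.90 CPM in the control libraries (log2 fold change 0.25, edgeR adjusted p = 0.351). Its merged exons overlap those of other annotated genes, ZNF324 and SLC27A5 among them, over 58.5% of their length. ZNF8, whose mouse counterpart binds the BMP signal transducer Smad1, had 1.69, 2.13 and 1.83 CPM in the libraries labelled knockout and 1.67, 1.78 and 1.34 CPM in the control libraries (log2 fold change 0.22, edgeR adjusted p = 0.51). ZNF211 had 14.1, 12.98 and 13.7 CPM in the libraries labelled knockout and 11.2, 13.6 and 11.05 CPM in the control libraries (log2 fold change 0.19, edgeR adjusted p = 0.247).

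ZNF264, ZNF460, ZNF548, ZNF586, ZNF497 and ZNF837 had log2 fold changes of 0.09, 0.12, 0.09, 0.14, 0.19 and 0.03. The 5 members with negative values were ZNF805 at -0.12, ZNF17 at -0.11, ZNF552 at -0.05, ZNF132 at -0.12 and ZNF324 at -0.04. None of them passed an unadjusted p of 0.05, so no tested member had a fall that stood out from the spread between libraries. A miss of the threshold does not show equality, since the 95% interval of ZNF17 ran from -0.47 to 0.25.

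**Figure D3:**
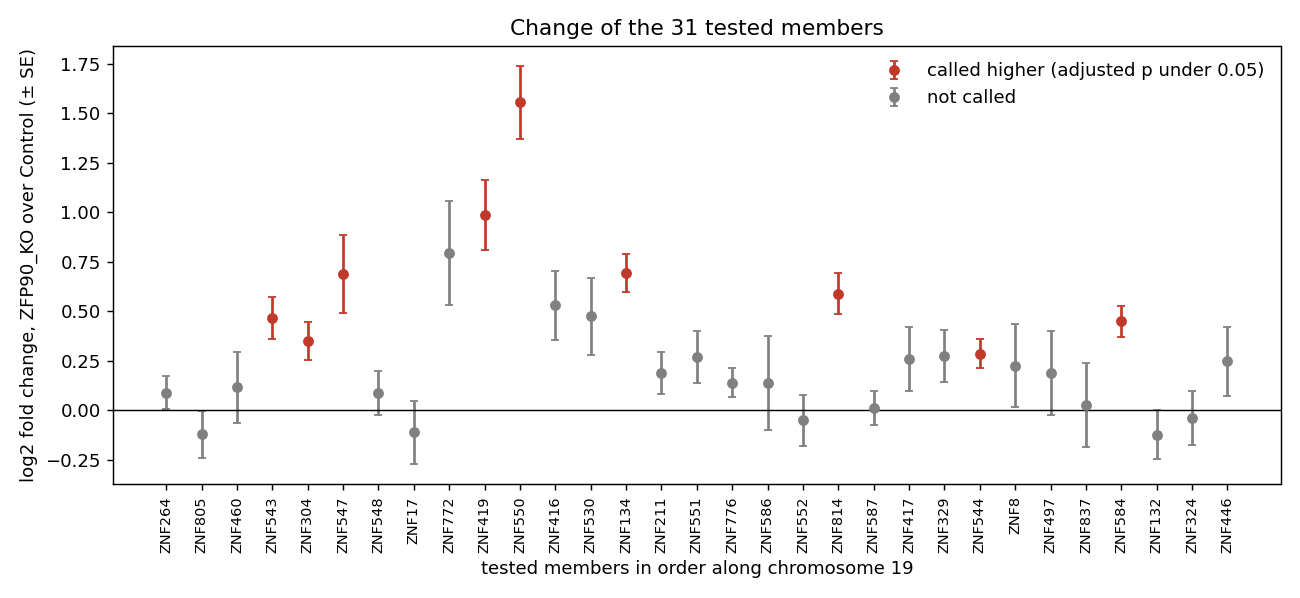
Log2 fold change, knockout over control, of the 31 tested members in order along chromosome 19, with SE bars. Red points are called higher and grey points are not called. The highest value is that of ZNF550 at 1.56, in the stretch from ZNF772 to ZNF134, and no point lies below -0.12.

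ZNF550, ZNF419 and ZNF134, the called members with the largest log2 fold changes, lay near each other. From ZNF772 to ZNF134, a stretch of 158 kb picked after the values were seen, the 8 members in order are ZNF772, ZNF419, ZNF773, ZNF549, ZNF550, ZNF416, ZNF530 and ZNF134. ZNF773 and ZNF549 had too few reads for a comparison. The 6 tested members had log2 fold changes from 0.48 to 1.56 with a median of 0.74, the groups did not overlap in any of the 6, and 3 were called. ZNF772 is among the 6 only through its counts in the libraries labelled knockout, and the median without it was 0.69. The other 25 tested members ranged from -0.12 to 0.69 with a median of 0.19. The libraries labelled knockout lay above all controls in 9 of these 25, and 6 were called. Of all genes tested, 20.9% had the libraries labelled knockout above all controls and 9.73% were called higher. The stretch also held the KRAB zinc finger gene ZIK1, which had 2, 0 and 1 reads in the libraries labelled knockout and 0 in each control library. Because the stretch was picked for its values, no test was made of it.

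The interval also holds genes that are not members. Of 49 such genes in the files, 9 passed the filter, of which 1 was called higher and 0 lower, with a median log2 fold change of 0.11. The share called higher was 11.1%, near the 9.73% of all genes tested. The gene called was ZNF749, a zinc finger gene between ZNF17 and ZNF772. It had 16.4 ± 0.920 CPM in the libraries labelled knockout and 12.5 ± 0.858 CPM in the control libraries (SD, n = 3 each; log2 fold change 0.39, SE 0.093, edgeR adjusted p = 0.0191), and its call was lost without knockout replicate 2 or 3 or control replicate 1. ZNF274, which is known to bind the 3′ ends of zinc finger genes and to recruit SETDB1 there, lies between ZNF329 and ZNF544. It had 19.5 ± 0.823 CPM in the libraries labelled knockout and 18.8 ± 0.913 CPM in the control libraries (SD, n = 3 each), with a log2 fold change of 0.05 (SE 0.079, edgeR adjusted p = 0.681).

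Other zinc finger genes of chromosome 19 also had more calls higher than lower. Of 91 ZNF genes on the short arm, 45 were tested, 13 were called higher and 1 lower, and the median log2 fold change was 0.19. Of 123 other ZNF genes on the long arm, 82 were tested, 19 were called higher and 3 lower, and the median was 0.20. The long-arm set includes the non-members ZNF749, ZNF587B, ZNF274 and ZNF324B of the member interval. The share called higher was thus 29.03% of tested members, 28.9% on the short arm and 23.2% of the other ZNF genes on the long arm. Of all genes tested, 9.73% were called higher and 11.4% lower. With 1 library left out, the short arm had 7 to 15 higher and 0 to 1 lower, lowest without knockout replicate 1 or 3. The long arm then had 9 to 24 higher and 1 to 3 lower, lowest without knockout replicate 3 at 9 and at 11 without knockout replicate 1, and at 12 without control replicate 1 or 3. All genes tested then gave 752 to 2248 higher and 998 to 2340 lower. The members were not tested against the other ZNF genes, and nothing particular to the 19q13.43 cluster can be read from the shares.

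Library medians over chromosome 19 differed less than those over the members. Over 993 tested genes of chromosome 19, library medians lay between 0.004 and 0.025 above the mean of all 6 in log2 in the libraries labelled knockout, and between -0.032 and 0.016 in the control libraries. The same medians over the 31 tested members were 0.092, 0.097 and 0.145 in the libraries labelled knockout and -0.133, -0.132 and -0.140 in the control libraries. Control replicate 2 lay 0.035 above the mean of the other controls on chromosome 19, and its value for the members was next to theirs. Such medians were not taken over the other ZNF genes of chromosome 19, so nothing particular to the members is read from them.

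**Figure D4:**
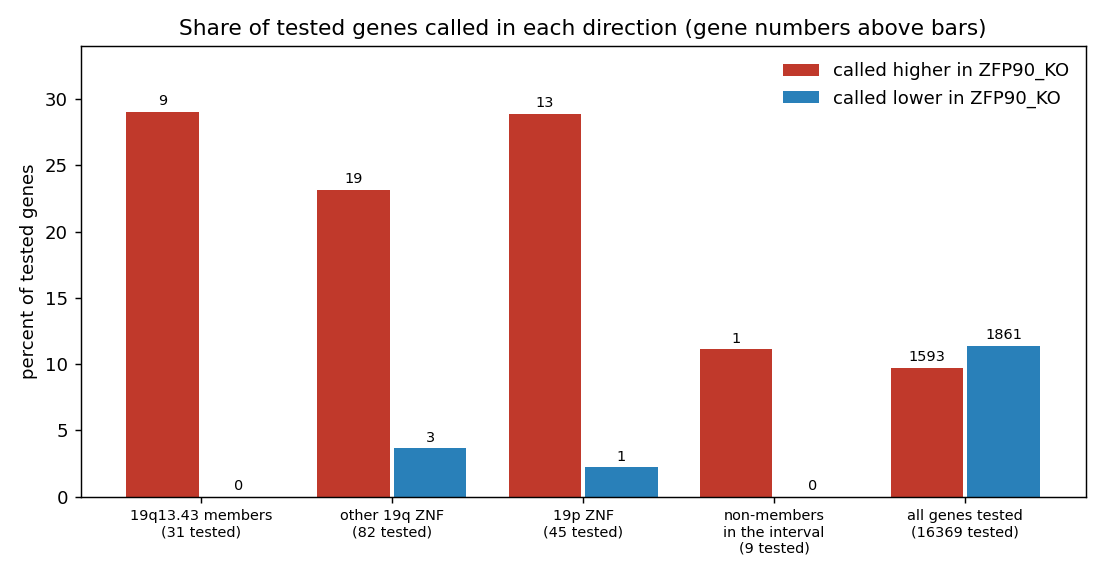
Percent of tested genes called higher (red) and lower (blue) in the libraries labelled knockout, for the 31 tested members, other ZNF genes of the long and the short arm of chromosome 19, non-members of the same interval, and all 16369 genes; numbers above bars are genes. Members reach 29.03% higher and 0% lower, beside 23.2%, 28.9%, 11.1% and 9.73% higher in the other sets. The long-arm set includes the ZNF genes of the interval that are not members.

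Corepressor genes that KRAB proteins use were called in both directions. Of 25 listed genes, all were tested, 6 (24.0%) were called higher, 4 (16.0%) lower and 15 were not called, beside 9.73% higher and 11.4% lower over all genes tested. The median log2 fold change of the list was 0.098. TRIM28, whose gene lies just beyond the distal edge of the cluster, had 381 ± 7.17 CPM in the libraries labelled knockout and 312 ± 6.66 CPM in the control libraries (SD, n = 3 each; log2 fold change 0.29, SE 0.045, edgeR adjusted p = 0.00291). Also called higher were DAXX (0.35), SUV39H2 (0.29), HDAC2 (0.30), DNMT1 (0.25) and the heterochromatin protein gene CBX5 (0.15). The DNA methyltransferase genes DNMT3A (-0.52) and DNMT3B (-0.31), UHRF1 (-0.32) and CHD3 (-0.28) were called lower. SETDB1 had a log2 fold change of -0.09 (SE 0.052, edgeR adjusted p = 0.23). Without knockout replicate 3 the counts were 2 higher and 3 lower, without knockout replicate 1 they were 3 and 2, and scaling by library size alone gave 3 and 4. The part of these genes in the members' change was not tested.

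Promoters of the members were richer in CpG than most promoters, and members without a read were not poorer in it than tested ones. Windows were available for 42 members and showed a median of 23 CpGs in 300 bases, against 14 over 27305 promoters of the table. The promoters of the table were not restricted by gene type, whereas all members are protein-coding genes, so the sets are not matched. The ratio of observed to expected CpG was above 0.6 in 92.9% of members, against 48.9% of all promoters. The 9 members with 0 reads had 21 to 42 CpGs with a median of 30. The 28 tested members had 12 to 35 with a median of 21, and the 9 called members 14 to 34 with a median of 21. The 5 untested members with some reads and a window had fewer, 11 to 30 with a median of 14. ZNF418, from a silent block, was among these 5, at 13. ZNF667, printed above, had the most, at 42, and 94.3% of all promoters hold fewer.

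Of 5 short motifs searched, 3 differed in frequency from the whole table by these counts. The letters CCGGAAG, the core bound by ETS factors, occurred on either strand in 26 of 42 member promoters (61.9%), against 10.7% of all promoters. CCAAT occurred in 61.9% of members and 35.7% of all, and TATAAA in 2.38% and 11.95%. The NRF1 motif CGCATGCG was about as frequent in both, in 2.38% of members and 2.19% of all promoters, and the Kaiso motif CTCGCGAG occurred in 0 of 42 members and 1.06% of all. None of these motifs contains another. Among members, CCAAT was present in 2 of 9 promoters without a read, 3 of 5 untested ones with some reads and 21 of 28 tested ones. CCGGAAG was present in 4 of 9, 3 of 5 and 19 of 28, while 7 of the 9 called promoters held each motif. The whole table is not matched to the members by gene type, and CCGGAAG itself holds a CpG. Promoters of 1 gene family share ancestry, so these counts are not independent, and a match is not evidence of binding.

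**Figure D5:**
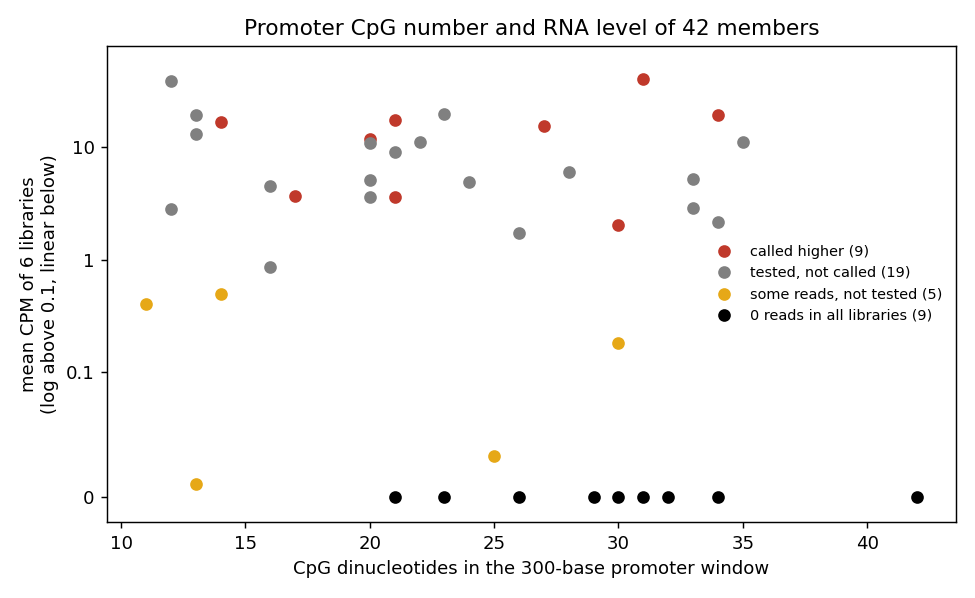
CpG dinucleotides in the 300-base promoter window and mean CPM over 6 libraries for 42 members, on a log axis above 0.1 CPM and a linear axis below. Red points are called higher, grey tested and not called, yellow not tested with some reads, and black without a read. Members without a read lie between 21 and 42 CpGs, within and above the range of 12 to 35 of tested members. Untested members with some reads lie between 11 and 30.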

How the data were processed

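RNA was sequenced from HCT116 cells, with libraries made from 1 µg of total RNA, per the labels' protocols. The authors deposited 1 table of unnormalised counts by gene symbol for each library. The submitters' processing notes name TopHat2 2.0.11 and HTSeq with builds hg19 and GRCh37, with HTSeq's version and strand option not given in the sources used here. Each table holds 5 summary lines, with 31.7% to 32.4% of listed reads, that were left out; 7.44% to 7.81% were ambiguous between genes and 12.3% to 12.8% not uniquely aligned. A count of 3 reads equals 0.176 to 0.223 CPM per library; these floors reflect counting error alone.

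Counts were fitted with edgeR 4.0.16 (R 4.3.3; quasi-likelihood test, TMM scaling, filterByExpr with minimum count 10 and total 15, 16369 genes) and, as an alternative, DESeq2 1.42.0, with p-values adjusted over all genes. CPM uses TMM-scaled library sizes, fold changes are ZFP90 KO over control, and SE is the absolute log2 fold change divided by the root of F. The test was tested on simulated data. Replicate pairs differed beyond sampling noise (chi-square per degree of freedom 2.21 to 20.1).

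The members and all gene lists were chosen with earlier results of these data known. Named were all called members, the 8 next largest changes, the 5 highest levels per kilobase, members at the detection limit, members with similar copies, and TRIM28, ZFP90 and called genes of the interval; other members are given by short values. Similarity was measured by 50-base stretches of GENCODE 29 transcripts, counted on both strands, in place of the planned protein identity. Gene positions (GRCh38) were matched by symbol, since the counts used another build; 87.2% of tested genes were placed. Promoters came from RefSeq (GRCh38.p14), the first listed start per gene.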

Additional observations from a re-analysis of the deposited data

How the results depend on the processing

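The 12 alternatives were DESeq2, DESeq2 size factors, library size alone, 2 other count filters, the replicate number as a block and each library left out in turn. No member was called lower under any of them, and no called member changed direction. Leaving out 1 library gave 5 to 10 members called higher and 0 lower, a median log2 fold change of 0.22 to 0.29, 0 to 1 interval genes higher and 0 lower, 7 to 15 higher and 0 to 1 lower on the short arm, 9 to 24 and 1 to 3 on the long arm, and 2 to 6 and 2 to 4 in the corepressor list. Over all genes tested, 752 to 2248 were called higher and 998 to 2340 lower with 1 library left out. Library size alone gave a member median of 0.18, 8 short-arm genes higher and 3 corepressor genes higher, and the median of all genes was then -0.058. Without a count filter 5 long-arm genes were lower. With the replicate block, as with DESeq2, 0 short-arm genes were lower. The cause of these moves was not tested.

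The main fit did not treat the replicate numbers as pairs. Correlations of deviations were 0.049, 0.145 and 0.093 for numbers 1 to 3, and each knockout library correlated best with the control of its own number. With the replicate block 8 members were called higher and 0 lower, and 1623 genes higher and 1840 lower in all. ZNF304 (edgeR adjusted p = 0.0509) and ZNF547 (0.06) were lost and ZNF416 (0.0372) was gained. The 15 members under the filter had at most 17 reads in a library.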
